A study of Rattus norvegicus with 6 samples.

Results

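Nucleus pulposus and notochord markers are the genes by which the gelatinous core of the intervertebral disc, and the embryonic rod it comes from, are recognized. The 10 genes described here were taken by name: Tbxt, Krt8, Krt18, Krt19, Foxf1, Foxf2, Shh, Cd24, Cdh2 and Lgals3. Rows for 9 of these 10 names were found among the 30562 genes of the count table, and Krt19 was not analysed here. In the embryo the notochord expresses the T-box factor brachyury (Tbxt) and secretes Sonic hedgehog (Shh), and its cells become the nucleus pulposus as the vertebral column segments. Large vacuolated notochordal cells stay in the rodent disc well into adult life, and they carry the paired simple-epithelial keratins 8, 18 and 19, the surface protein CD24, N-cadherin (Cdh2) and galectin-3 (Lgals3), none of which is limited to these cells. The forkhead factors Foxf1 and Foxf2 are known mainly from mesenchyme and have been used as markers of the nucleus pulposus.

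Whole-disc RNA was sequenced to compare discs given AF-PTK@LEV@SPP1 with control discs. By the study's methods the animals were 12-week-old male Sprague–Dawley rats (WT in the sample records), 1 tail disc of which was punctured with a needle as a model of degeneration, and tissue was taken from 3 separate animals per group after 8 weeks of treatment. AF-PTK@LEV@SPP1 is a particle in which liposomes and bacterial outer membrane vesicles are merged. It holds an siRNA against Spp1, the gene of osteopontin, and displays an annulus-binding peptide on a bond that oxidants cleave. Control discs received PBS by the methods and nothing by the sample records. The records also give 14 days of treatment, mice in place of rats, and macrophages sorted for F4/80 and CD11b in place of tissue. The gene identifiers are those of rat, and matrix genes of whole disc made up a large share of every library: the cartilage and inner disc list (12 of 12 genes with a row) summed to 28516 to 47359 CPM (counts relative to library size) and the annulus and tendon list (7 of 7) to 53705 to 114222, against 717 to 3165 for the macrophage list (12 of 12). The values therefore go against sorted macrophages, and the samples are described as disc tissue.

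The 3 control libraries held 17943000, 16565300 and 17489900 counts to 6 significant digits, and the 3 with the label AF-PTK@LEV@SPP1 held 17075000, 15560700 and 17855200. At this depth 3 counts, the upper limit that a count of 0 allows, correspond to 0.167 to 0.193 CPM, a limit that covers counting error only. Levels below are CPM after normalization by the trimmed mean of M-values (TMM), and they are compared between libraries. No transcript lengths were used, so genes are not ranked by level, except to name the most abundant gene of a list. That gene is the one with the highest CPM over the 6 libraries together. The rank is not one of transcript numbers and need not hold in each library. Spp1, the target of the siRNA, stood at 8123, 4411 and 4417 CPM in control libraries 1, 2 and 3 and at 8054, 6903 and 8461 CPM in labelled libraries 1, 2 and 3. The siRNA is named in the methods as one against the mouse gene, and whether it matches the rat transcript was not tested. No reduction of the target in whole-disc RNA goes with the label. The paper aims the siRNA at macrophages, and a change of Spp1 within those cells alone cannot be read from whole tissue. The reason for the Spp1 levels was not tested. The treated arm is called the labelled libraries throughout, and directions are relative to that label.

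Control libraries 2 and 3 differed little beyond sampling noise. Over the 14393 genes for which the pair had 20 or more counts together, the variance was 1.33 times that of counting alone, and 16 genes (0.111%) differed, whereas 39.6% to 56.6% of genes differed in every other pair within a group. They were counted as 1 sample, which leaves n = 2 distinct control samples and n = 3 labelled samples. Control library 1 stood apart from this pair in the markers described here. Tbxt, Krt8, Krt18 and Cdh2, 4 of the 9 genes, were at least 2 times higher in control library 1 than in the pair, as were 9% of all genes tested. For Tbxt, Krt8, Krt18 and Cd24 control library 1 lay between the pair and every labelled library. How many of all genes had this order was not counted, so it is not read as particular to the markers. Labelled library 1 was likewise above the other libraries of its group in the sum. The 9 genes together took 0.151%, 0.0781% and 0.077% of the counts in control libraries 1, 2 and 3 and 0.501%, 0.204% and 0.225% in labelled libraries 1, 2 and 3.

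Tbxt, Krt8, Krt18, Cd24, Foxf1 and Foxf2 had higher levels in each labelled sample than in each of the distinct control samples, and Shh, Cdh2 and Lgals3 overlapped between the groups. This makes 6 of the 9 genes without overlap in the higher direction, where 23.9% of all 15537 genes tested were higher and 21.9% lower without overlap. The means over the labelled samples were 1.64 to 8.44 times the control means for these 6 genes. Shh, at 0 to 2 counts in every control library, is left out of the tests and medians that follow. With edgeR's quasi-likelihood test over the 5 distinct samples, 0 of the other 8 genes passed a Benjamini-Hochberg adjusted p under 0.05, against 3.7% of all genes tested (1.13% higher and 2.57% lower in the labelled libraries). At an unadjusted p under 0.05 the same test took 5 of the 8 genes (Tbxt, Krt8, Krt18, Foxf2 and Cd24) and 25.4% of all genes. limma-voom passed 0 of the 8, against 0.895% of all genes higher and 2.92% in either direction, and DESeq2 passed 5, all higher, against 7.29% of all genes higher and 16.6% in either direction. When the near-identical control libraries were kept apart as separate samples, edgeR passed 3 of the 8 genes, Krt18, Foxf2 and Cd24, all higher, against 8.2% of all genes higher and 18.1% in either direction. Over the 8 genes, each with more than 3 counts in at least 1 library of each group, the median log2 fold change was 1.59 and 7 of the 8 were above 0, against a median of 0.04 over all tested genes that met the same condition. Whole tissue was measured, so more cells of a type and more RNA per cell cannot be told apart.

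**Figure D1:**
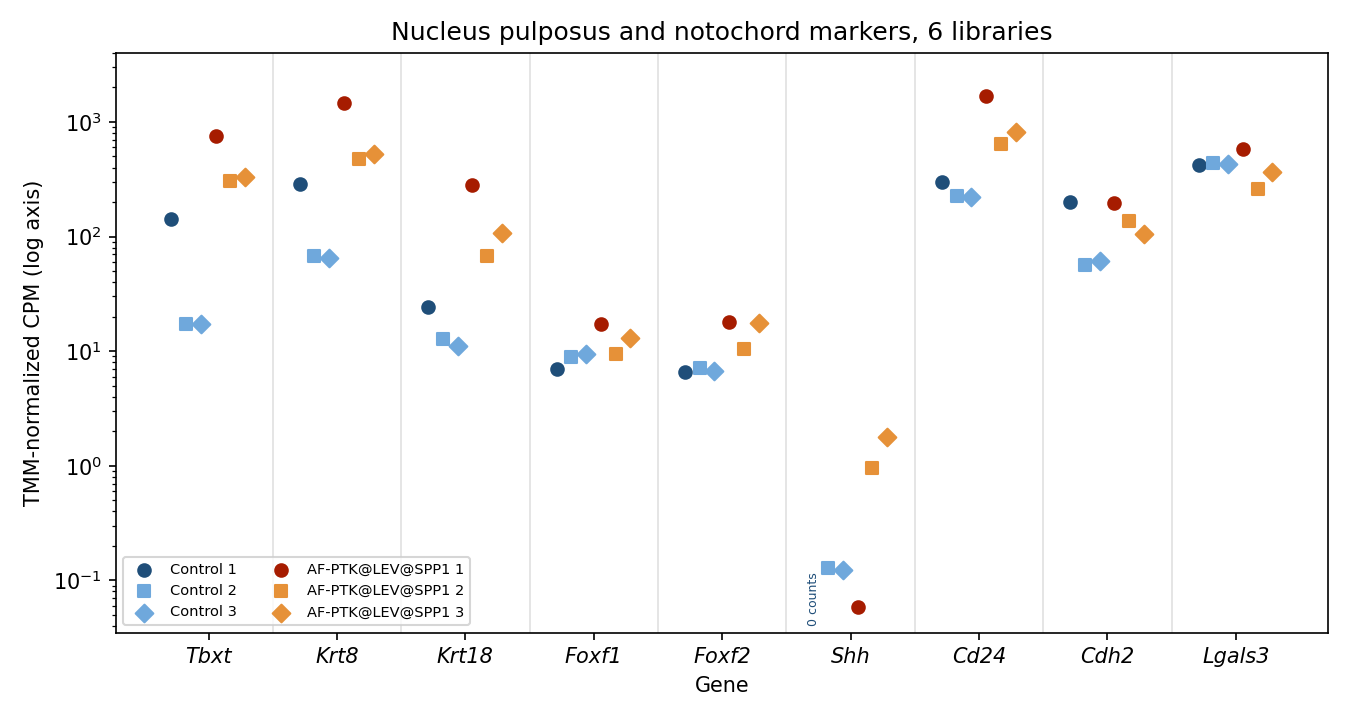
TMM-normalized CPM of the 9 markers on a log axis, 1 point per library, blue for control and red or orange for the label AF-PTK@LEV@SPP1; no error bars are drawn. For Tbxt and Krt8 control library 1 lies between the other control libraries and the labelled libraries, whereas for Lgals3 the 3 control libraries (424 to 437 CPM) lie inside the range of the labelled ones (258 to 582 CPM).

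Tbxt encodes brachyury, the T-box transcription factor that the notochord needs to form and that marks notochordal cells of the disc. Its row (chromosome 1, 52298099 to 52305864, minus strand, in the coordinates of the count table, whose build is not given in the sources used here) held 2768, 271 and 283 counts in control libraries 1, 2 and 3 and 12877, 5108 and 5828 in labelled libraries 1, 2 and 3. Normalized, these were 142, 17.4 and 17.3 CPM against 757, 308 and 332 CPM. The groups did not overlap, but control library 1 was 8.19 times the mean of the control pair, a wider gap than the 2.17-fold between it and labelled library 2. Over distinct samples the level was 79.8 ± 88.3 CPM (SD, n = 2) in control and 466 ± 253 CPM (SD, n = 3) in the labelled group. The log2 fold change was 2.54 (SE 0.996, edgeR adjusted p = 0.195) and did not pass. Without control library 1 it was 4.73 (adjusted p = 0.0792, edgeR), without labelled library 1 it was 1.97 (adjusted p = 0.277), and without the control pair it was 1.71 (adjusted p = 0.335).

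Keratins 8 and 18 are the type II and type I partners that assemble into the intermediate filaments of simple epithelia and of notochordal cells. Krt8 stood at 287, 67.0 and 64.7 CPM in control libraries 1, 2 and 3 and at 1477, 478 and 523 CPM in labelled libraries 1, 2 and 3. As with Tbxt, labelled library 1 was highest, the control pair was lowest, and control library 1 lay between, 4.36 times above the pair and 1.66 times below labelled library 2. The Krt8 means were 177 ± 156 CPM (SD, n = 2) and 826 ± 564 CPM (SD, n = 3), a log2 fold change of 2.22 (SE 0.861, edgeR adjusted p = 0.192), which was 3.63 without control library 1 (adjusted p = 0.144), 1.46 without labelled library 1 (adjusted p = 0.270) and 1.52 without the control pair (adjusted p = 0.445).

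Krt18 stood at 24.1, 12.7 and 11.2 CPM in control libraries 1, 2 and 3 and at 282, 67.5 and 107 CPM in labelled libraries 1, 2 and 3. Here control library 1 was nearer to the pair, at 2.01 times its level, while labelled library 1 was 4.18 times labelled library 2. Its means were 18 ± 8.58 CPM (SD, n = 2) and 152 ± 114 CPM (SD, n = 3). The log2 fold change of Krt18 was 3.08 (SE 0.766, edgeR adjusted p = 0.0919), and with 6 separate libraries it was 3.25 (edgeR adjusted p = 0.0205). Leaving out control library 1 gave 3.66 (adjusted p = 0.167) and leaving out labelled library 1 gave 2.24 (adjusted p = 0.0847). The partners did not keep a fixed ratio: 11.9 Krt8 counts were read per Krt18 count in control library 1, 5.26 and 5.79 in control libraries 2 and 3, and 5.24, 7.08 and 4.89 in labelled libraries 1, 2 and 3.

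The genes of these partners are neighbours on chromosome 7 and point away from each other, with Krt8 on the minus strand (133124203 to 133131728) and Krt18 on the plus strand (133157475 to 133161166), 25.7 kb apart in the coordinates of the count table. Because the pair had high and low levels in the same libraries, the stretch before the start of each gene is printed, together with that of Foxf2, from the RefSeq promoter table of build GRCr8, in which 5 of the 10 names matched (Tbxt, Krt8, Krt18, Foxf2 and Cd24). Coordinates are chr7:135010439-135010589 on the minus strand for Krt8 (the farthest 151 bases only), chr7:135035918-135036167 on the plus strand for Krt18 and chr17:33051260-33051509 on the minus strand for Foxf2, each read 5′ to 3′ on the strand of its gene. Capitals mark 4 motifs searched on both strands: TATAA, the GC box GGGCGG, the CCAAT box and the T-box half-site TCACACCT.
Krt8: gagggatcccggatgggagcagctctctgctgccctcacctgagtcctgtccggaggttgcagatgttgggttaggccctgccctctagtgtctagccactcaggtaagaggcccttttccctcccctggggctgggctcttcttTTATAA
Krt18: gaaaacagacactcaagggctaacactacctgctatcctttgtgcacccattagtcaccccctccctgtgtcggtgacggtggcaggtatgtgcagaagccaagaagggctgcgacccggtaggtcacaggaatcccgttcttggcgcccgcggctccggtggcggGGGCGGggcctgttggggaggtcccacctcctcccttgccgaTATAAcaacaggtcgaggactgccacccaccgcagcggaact
Foxf2: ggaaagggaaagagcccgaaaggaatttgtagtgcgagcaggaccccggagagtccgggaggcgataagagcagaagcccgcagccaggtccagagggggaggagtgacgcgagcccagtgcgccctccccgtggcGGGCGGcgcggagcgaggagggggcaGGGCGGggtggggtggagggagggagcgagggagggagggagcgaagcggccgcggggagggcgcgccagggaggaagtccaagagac

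Over the 250 bases before the start, TATAA was found in Krt8 (2 overlapping matches, 1 on each strand), Krt18 (42 bases before the start) and Cd24 (39 bases before the start) and not in Tbxt or Foxf2. Of all 33469 windows of this length in the table, 24% hold it. GGGCGG was found in Tbxt, Krt18, Foxf2 and Cd24 (30.5% of all windows), CCAAT in Tbxt alone (34%), and TCACACCT in none of the 5 (0.959%). These are matches of letters in 1 window per gene, and no binding was measured.

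Krt19 pairs with keratin 8 in the same cells. In the GRCr8 gene table it lies between Krt13 and Krt17, in the order Krt13, Krt15, Krt19, Krt9, Krt14, Krt16, Krt17. The count table has in this interval a row of 104998 bases named Krt16 (chromosome 10, 85066802 to 85171799), which spans from beyond Krt13 to short of Krt17 and encloses Krt9, so reads from Krt15, Krt19, Krt14 and Krt16, where counted, cannot be told apart in it. This row was picked after its values were seen. It stood at 169, 38.0 and 40.1 CPM in control libraries 1, 2 and 3 and at 915, 283 and 276 CPM in labelled libraries 1, 2 and 3. Those levels follow Krt8, with the log2 fold change at 2.24 (SE 0.894, edgeR adjusted p = 0.200), 3.64 without control library 1 (adjusted p = 0.160) and 1.39 without labelled library 1 (adjusted p = 0.283), and which keratin gave the reads was not tested. Among its neighbours Krt9 had 0 counts in all 6 libraries, and Krt17 had 0 to 6.

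**Figure D2:**
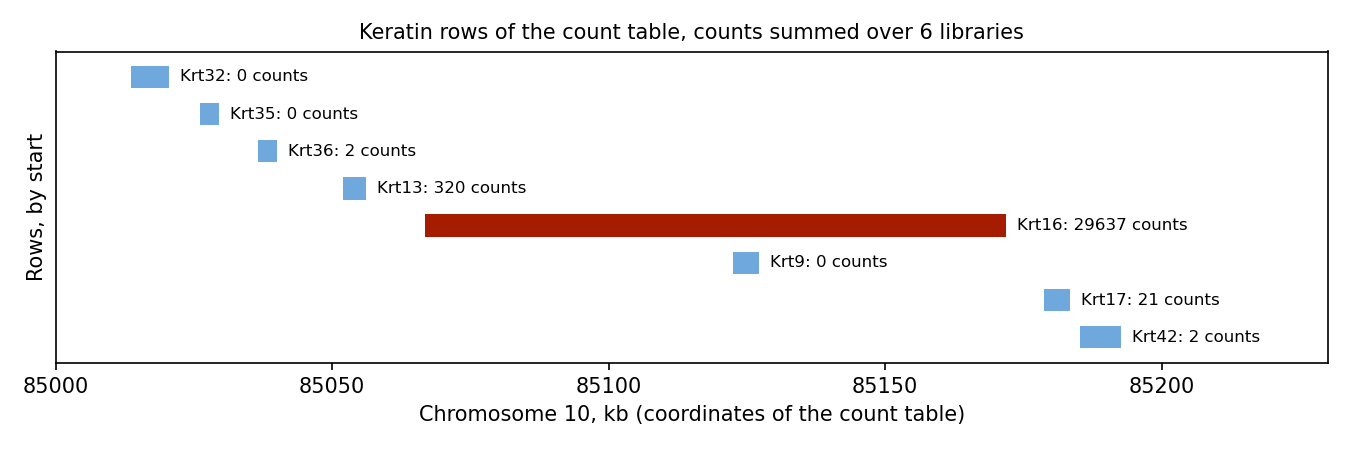
Keratin rows of the count table around the row named Krt16 on chromosome 10, drawn to scale in the coordinates of the table, with the counts of each row summed over the 6 libraries. That row (red) holds 29637 counts and encloses Krt9 with 0, while Krt13 and Krt17 beside it hold 320 and 21.

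Cd24 encodes a small glycoprotein anchored in the outer membrane that is used to sort nucleus pulposus cells and is also found on B cells and neutrophils. Its levels were 301, 226 and 223 CPM in control libraries 1, 2 and 3 and 1703, 648 and 820 CPM in labelled libraries 1, 2 and 3. All labelled libraries were above all control libraries by at least 2.15-fold, and control library 1 was 1.34 times the control pair, less apart than for Tbxt or the keratins. The means were 263 ± 54.4 CPM (SD, n = 2) and 1057 ± 566 CPM (SD, n = 3), with a log2 fold change of 2.00 (SE 0.495, edgeR adjusted p = 0.0913). It was 2.08 (adjusted p = 0.0196) with 6 separate libraries in edgeR, 2.22 (adjusted p = 0.186) without control library 1 and 1.44 (adjusted p = 0.0792) without labelled library 1. The B cell list (8 of 8 genes with a row, Cd79a the most abundant) summed to 73.9, 11.8 and 9.40 CPM in control libraries 1, 2 and 3 and to 34.7, 84.4 and 125 CPM in labelled libraries 1, 2 and 3. Cd79a led that list only in labelled libraries 2 and 3, and Blnk led it in the other libraries. The neutrophil list (9 of 9, S100a9 the most abundant, Ltf at 0 to 1 count) summed to 1125, 184 and 174 CPM and to 289, 2868 and 3953 CPM in the same order. Labelled library 1, which had the highest Cd24 level, was the lowest of the labelled libraries in both sums, and the part of these cells in the Cd24 level was not tested further.

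Cdh2 encodes N-cadherin, the calcium-dependent adhesion protein of notochordal cell clusters, nerve and muscle. Its levels were 202, 56.2 and 60.7 CPM in control libraries 1, 2 and 3 and 198, 137 and 106 CPM in labelled libraries 1, 2 and 3. Control library 1 was the highest of all, 3.45 times the control pair, and the groups overlapped. The log2 fold change was 0.17 (95% interval -1.24 to 1.59, edgeR adjusted p = 0.869). It moved with the sample left out, being 1.31 without control library 1, -0.46 without the control pair and -0.14 without labelled library 1 (edgeR adjusted p = 0.903).

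Lgals3 encodes galectin-3, a lectin that binds beta-galactosides and is abundant in macrophages as well as in notochordal cells. It stood at 424, 437 and 429 CPM in control libraries 1, 2 and 3 and at 582, 258 and 368 CPM in labelled libraries 1, 2 and 3. The control libraries were nearly level with each other, and labelled libraries lay on both sides of them. Its log2 fold change was -0.10 (95% interval -0.995 to 0.80, edgeR adjusted p = 0.885), and 0.14 without labelled library 2 (adjusted p = 0.802). The macrophage list (12 of 12 genes with a row, Lyz2 the most abundant) summed to 3165, 2141 and 2118 CPM in control libraries 1, 2 and 3 and to 717, 1979 and 1997 CPM in labelled libraries 1, 2 and 3, and its part in the Lgals3 level was not tested.

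Foxf1 had low levels, 6.99, 8.88 and 9.52 CPM in control libraries 1, 2 and 3 and 17.3, 9.47 and 13.1 CPM in labelled libraries 1, 2 and 3. With the control pair averaged at 9.20 CPM the groups did not overlap, but control library 3 alone was above labelled library 2. The log2 fold change was 0.70 (SE 0.307, edgeR adjusted p = 0.227), and 0.44 without labelled library 1 (adjusted p = 0.349). Foxf2 stood at 6.63, 7.08 and 6.66 CPM in control libraries 1, 2 and 3 and at 18.1, 10.4 and 17.6 CPM in labelled libraries 1, 2 and 3. Among the 6 genes without overlap it was the 1 in which the distinct control samples were closest, at 6.75 ± 0.170 CPM (SD, n = 2) against 15.3 ± 4.26 CPM (SD, n = 3). Its log2 fold change was 1.18 (SE 0.287, edgeR adjusted p = 0.0894), 1.18 also with 6 separate libraries (adjusted p = 0.0216), 1.15 without control library 1 (adjusted p = 0.213) and 1.01 without labelled library 1 (adjusted p = 0.140).

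Shh, the ligand that the notochord sends to the floor plate and the sclerotome, was close to the counting limit. It had 0, 2 and 2 counts in control libraries 1, 2 and 3 and 1, 16 and 31 counts in labelled libraries 1, 2 and 3. Labelled libraries 2 and 3 were above the limit of 3 counts and labelled library 1, the one with the highest Tbxt, was not. Shh passed the filter on low counts only through labelled libraries, so no fold and no test are given.

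Of the other hedgehog pathway genes, 16 of 17 had a row and all 16 were tested, and 0 passed at an adjusted p under 0.05 in edgeR over distinct samples, against 3.7% of all genes, with 3 at an unadjusted p under 0.05, where 25.4% of all genes were. With 6 separate libraries edgeR passed 2, where 18.1% of all genes passed. These were 1 higher, Scube2, which encodes a secreted carrier that frees the lipid-bearing ligand from the cell, and 1 lower, Hhat, the acyltransferase that adds palmitate to the ligand. Both were named after their values were seen. Scube2 stood at 25.4, 7.53 and 6.35 CPM in control libraries 1, 2 and 3 and at 98.0, 62.2 and 40.3 CPM in labelled libraries 1, 2 and 3, with control library 1 again between the pair and the labelled libraries. Hhat stood at 5.50, 7.85 and 8.18 CPM and at 3.06, 3.14 and 1.99 CPM in the same order, without overlap. Over distinct samples the edgeR adjusted p was 0.148 for Scube2 and 0.0864 for Hhat. The median log2 fold change of the list was 0.34, and the receptor gene Ptch1 and the target gene Gli1, both read as outputs of the pathway, had log2 fold changes of -0.04 (SE 0.236) and 0.35 (SE 0.238).

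Among 15 other nucleus pulposus and notochord markers, 13 were tested and 1 passed, Sox6, against 3.7% of all genes. With 6 separate libraries 5 of the 13 passed, against 18.1% of all genes: Sox6, Gpc3, Anxa3 and Sostdc1 higher and Car12 lower. Of these Sostdc1 had 0 to 2 counts in every control library and passed the filter on low counts only through labelled libraries. Its pass is therefore not read as a result, which leaves Sox6, Gpc3, Anxa3 and Car12 among 12 genes. Sox6 encodes an SRY-box factor that works with Sox5 and Sox9 in cartilage and notochord. It rose from 8.42, 10.2 and 8.12 CPM in control libraries 1, 2 and 3 to 32.4, 24.3 and 21.9 CPM in labelled libraries 1, 2 and 3. Control library 1 was level with the control pair, unlike for Tbxt. The log2 fold change of Sox6 was 1.57 (SE 0.215, edgeR adjusted p = 0.0341), with an adjusted p above 0.05 without control library 1 (0.0954), without labelled library 1 (0.0515), 2 (0.0913) or 3 (0.136), and without the control pair (0.156). Sox5 and Sox9 had log2 fold changes of -0.07 (SE 0.304) and 0.53 (SE 0.428) and did not pass.

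Gpc3 and Anxa3, were picked after their values were seen. Gpc3, a glypican of the cell surface, stood at 53.4, 8.62 and 8.49 CPM in control libraries 1, 2 and 3 and at 404, 161 and 152 CPM in labelled libraries 1, 2 and 3. Anxa3, a calcium-dependent membrane-binding protein, stood at 50.5, 16 and 15.6 CPM and at 152, 85.0 and 123 CPM in the same order. Both had control library 1 between the pair and the labelled libraries, and neither passed in edgeR over distinct samples (adjusted p = 0.143 and 0.127), while both did with 6 separate libraries (0.0485 and 0.0396). Car12, a carbonic anhydrase and marker of nucleus pulposus cells, was also picked after its values were seen, as the lowest fold change of the list. It had 73.6, 73.3 and 72.7 CPM in control libraries 1, 2 and 3 and 42.0, 26.1 and 29.9 CPM in labelled libraries 1, 2 and 3, with a log2 fold change of -1.17 (SE 0.218, edgeR adjusted p = 0.0556). This call turned on the processing: the edgeR adjusted p was 0.0115 with 6 separate libraries, 0.0383 with no filter on low counts and 0.0442 without labelled library 1, but 0.197 without labelled library 3 and 0.214 without the control pair. Noto, a homeobox gene of the embryonic notochord, had 0 counts in all 6 libraries. Of the list, 12 genes had more than 3 counts in at least 1 library of each group, and their log2 fold changes were above 0 for 7 and below for 5, with a median of 0.36.

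The list of keratin partners and the desmosome, the junction that anchors keratin filaments at the membrane, had 7 of 8 genes with a row and 6 tested, of which 1 passed, against 3.7% of all genes, and 2 with 6 separate libraries, against 18.1%. The first was Jup, plakoglobin, which links desmosomal cadherins to desmoplakin. Jup rose from 22.7, 20.1 and 21.9 CPM in control libraries 1, 2 and 3 to 40.2, 39.6 and 34.9 CPM in labelled libraries 1, 2 and 3, and its log2 fold change was 0.80 (SE 0.120, edgeR adjusted p = 0.0397). The call was lost with library size alone as the scaling (adjusted p = 0.0693), without control library 1 (0.0925) and without labelled library 1 (0.0814), 2 (0.106) or 3 (0.146), and without the control pair (0.194). Desmoplakin (Dsp), picked after its values were seen, stood at 27.0, 7.27 and 9.77 CPM in control libraries 1, 2 and 3 and at 206, 66.7 and 65.1 CPM in labelled libraries 1, 2 and 3, with control library 1 between the pair and the labelled libraries as for Krt8, and passed with 6 separate libraries (edgeR adjusted p = 0.0367) but not over distinct samples (0.128). Of the cadherins and catenins 10 of 10 were tested. Of the galectin list 6 of 8 were tested, among them Lgals3bp, a protein that binds galectin-3 and is not a galectin. In both lists 0 passed in edgeR over distinct samples, against 3.7% of all genes, with 4 and 3 at an unadjusted p under 0.05 (25.4% of all genes tested) and, with 6 separate libraries, 4 (1 higher and 3 lower) and 1 passing (18.1% of all genes). The 1 of the galectin list was Lgals1, which was lower. The median log2 fold changes were -0.07 and 0.47. Without Lgals3bp, 5 galectins were tested with 2 at an unadjusted p under 0.05, and their median was 1.12.

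The genes whose pattern over the 5 distinct samples was closest to each marker were sought among 13261 tested genes, as the smallest root-mean-square difference of log2(CPM + 1) centred on the mean of the gene. For Tbxt these were Chrm2 (0.0865), a muscarinic receptor, Ap3b2 (0.110), an adaptor subunit of vesicle traffic, and Tmem163 (0.126), a membrane protein. Chrm2 stood at 34.0, 4.18 and 4.33 CPM in control libraries 1, 2 and 3 and at 195, 74.8 and 81.5 CPM in labelled libraries 1, 2 and 3. Closest to Krt8 were the row named Krt16 (0.0773), Adgrd1 (0.165) and Krt7 (0.205), the last a type II keratin of simple epithelia. Krt18 had no gene so near, with Celsr1 (0.248), Sh3gl2 (0.270) and Arhgef16 (0.309) first. Plekha7 (0.0661), Mtmr7 (0.0819) and Ehd3 (0.128) were closest to Cd24, and Plekha7, a protein of the adherens junction, stood at 4.21, 3.02 and 2.69 CPM and at 28.2, 11.4 and 12.8 CPM in the same order of libraries. Rab26 (0.0656) and Inafm1 (0.0700) were closest to Foxf1 and Nova1 (0.0790) to Foxf2 among genes with a symbol. Those closest to Cdh2 were St8sia1 (0.0972), Syt8 (0.140) and Kctd12 (0.162), and to Lgals3 Cd28 (0.0604), Stxbp6 (0.100) and Prss23 (0.119). Shh was too low for this comparison. With 5 samples many genes can be near by coincidence, and the distances are given as a description.

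Keratins 8 and 18 are also markers of epithelium, so skin and other epithelial cells were looked for. The keratinocyte and epithelium list (8 of 10 genes with a row, Cdh1 the most abundant) summed to 23.9, 24.1 and 22.0 CPM in control libraries 1, 2 and 3 and to 21.0, 51.5 and 42.5 CPM in labelled libraries 1, 2 and 3. Cdh1 led the list only in labelled libraries 2 and 3, at 28.2 and 19.0 CPM, against 1.87 to 5.96 CPM in the other libraries. Dsg3 led it in the control libraries and Krt10 in labelled library 1. Labelled library 1, with the highest Krt8 and Krt18, had the lowest sum of this list, but its genes did not all follow the sum. Epcam, a surface protein of epithelia in general, had 28, 7 and 7 counts in control libraries 1, 2 and 3 and 40, 25 and 26 in labelled libraries 1, 2 and 3, or 1.44, 0.450 and 0.427 CPM against 2.35, 1.51 and 1.48 CPM. It was highest in labelled library 1 and the groups did not overlap, and it did not pass (edgeR adjusted p = 0.374). Krt5, which defines basal keratinocytes, had 0 to 4 counts. Whether epithelial cells add to the keratin levels was not tested further.

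Markers of other cells also differed between the libraries, and their part in the levels above was not tested. Genes of the erythroid list (8 of 8, Hba-a1 the most abundant) summed to 2397, 3188 and 3278 CPM in control libraries 1, 2 and 3 and to 2510, 20642 and 14133 CPM in labelled libraries 1, 2 and 3. Genes of skeletal muscle (10 of 11, Acta1 the most abundant, Pax7 at 0 to 3 counts) summed to 1056, 1408 and 1428 CPM and to 976, 10081 and 2513 CPM in the same order. Labelled libraries 2 and 3 were thus high in blood and muscle genes while labelled library 1 was at the level of the controls. Adipocyte genes (6 of 6, Fabp4 the most abundant) summed to 388, 67.0 and 70.3 CPM in control libraries 1, 2 and 3 and to 961, 1562 and 685 CPM in labelled libraries 1, 2 and 3, with control library 1 between the groups as for Tbxt. Schwann cell genes (5 of 5, S100b the most abundant, which cartilage and disc also express) summed to 283, 265 and 247 CPM and to 458, 907 and 1225 CPM.

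Matrix and bone lists gave another order. The cartilage and inner disc list (Col2a1 the most abundant) summed to 28516, 37664 and 37562 CPM in control libraries 1, 2 and 3 and to 44007, 32281 and 47359 CPM in labelled libraries 1, 2 and 3, so that the groups overlapped, and 0 of its 12 genes passed in edgeR (3 at an unadjusted p under 0.05, against 25.4% of all genes, and 1 lower with 6 separate libraries, against 18.1% in either direction). Of the 12 genes 8 had log2 fold changes below 0, and the median was -0.53. Without overlap 5 were lower (21.9% of all genes) and 0 higher (23.9%). The annulus and tendon list (Col1a1 the most abundant) summed to 53705, 74284 and 75134 CPM and to 114222, 81050 and 96636 CPM in the same order, without overlap. Col1a1 and Col1a2 outweighed its other genes in this sum. Of its 7 genes 3 were higher without overlap (23.9% of all genes) and 2 had log2 fold changes below 0. In edgeR 0 passed over distinct samples (3.7% of all genes) or with 6 separate libraries (18.1%). For osteoblast genes (7 of 7, Ibsp the most abundant) control library 1 was highest at 4670 CPM, against 1838 and 1838 CPM in the control pair and 2217, 3189 and 1851 CPM in the labelled libraries. Its genes did not all follow the sum: 2 of the 7 had log2 fold changes above 0 and 5 below. Bglap, picked after its values were seen, stood at 625, 12.1 and 12.6 CPM in control libraries 1, 2 and 3. In labelled libraries 1, 2 and 3 it stood at 567, 873 and 758 CPM, so that the control pair was far below every other library. Endothelial genes (8 of 9, Pecam1 the most abundant) summed to 587 to 704 CPM in control and 437 to 517 CPM in labelled libraries, and smooth muscle and pericyte genes (8 of 8, Acta2 the most abundant) to 942 to 1225 CPM and 974 to 1920 CPM. Acta2 led the smooth muscle and pericyte list in labelled library 1 alone, at 460 CPM against 155 to 177 CPM in the other libraries.

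In the lists of cell types and tissues 2 of 105 genes tested (1.9%) passed in edgeR over distinct samples, against 3.7% of all genes, and both were of the macrophage list. With 6 separate libraries edgeR passed genes of further lists, where 18.1% of all genes passed. Higher were 4 of 4 Schwann cell genes and 2 of 6 adipocyte genes. Lower were 4 of 8 endothelial, 4 of 12 macrophage, 1 of 8 smooth muscle and pericyte and 1 of 12 cartilage and inner disc genes. Of the 12 macrophage genes 11 had log2 fold changes below 0 and 1, Cd163, above it, with a median of -0.88. Without overlap 6 were lower (21.9% of all genes) and 0 higher (23.9%). Cd163 stood at 54.0, 29.5 and 29.0 CPM in control libraries 1, 2 and 3 and at 47.2, 143 and 88.3 CPM in labelled libraries 1, 2 and 3. Cd68, a lysosomal glycoprotein, fell from 150, 112 and 116 CPM in control libraries 1, 2 and 3 to 28.5, 42.1 and 30.9 CPM in labelled libraries 1, 2 and 3 (log2 fold change -1.97, SE 0.217, adjusted p = 0.0231). Cd14, the co-receptor for bacterial lipopolysaccharide, fell from 152, 134 and 134 CPM to 38.2, 36.1 and 41.5 CPM in the same order (log2 fold change -1.89, SE 0.118, adjusted p = 0.0119). Control library 1 lay with the control pair for both genes. Without control library 1 the edgeR adjusted p was 0.0571 for Cd68 and 0.0272 for Cd14, and without labelled library 1 it was 0.0565 and 0.0361. Neither passed without labelled library 2 (0.0679 for both) or 3 (0.139 and 0.130), nor without the control pair (0.0866 and 0.0673).

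**Figure D3:**
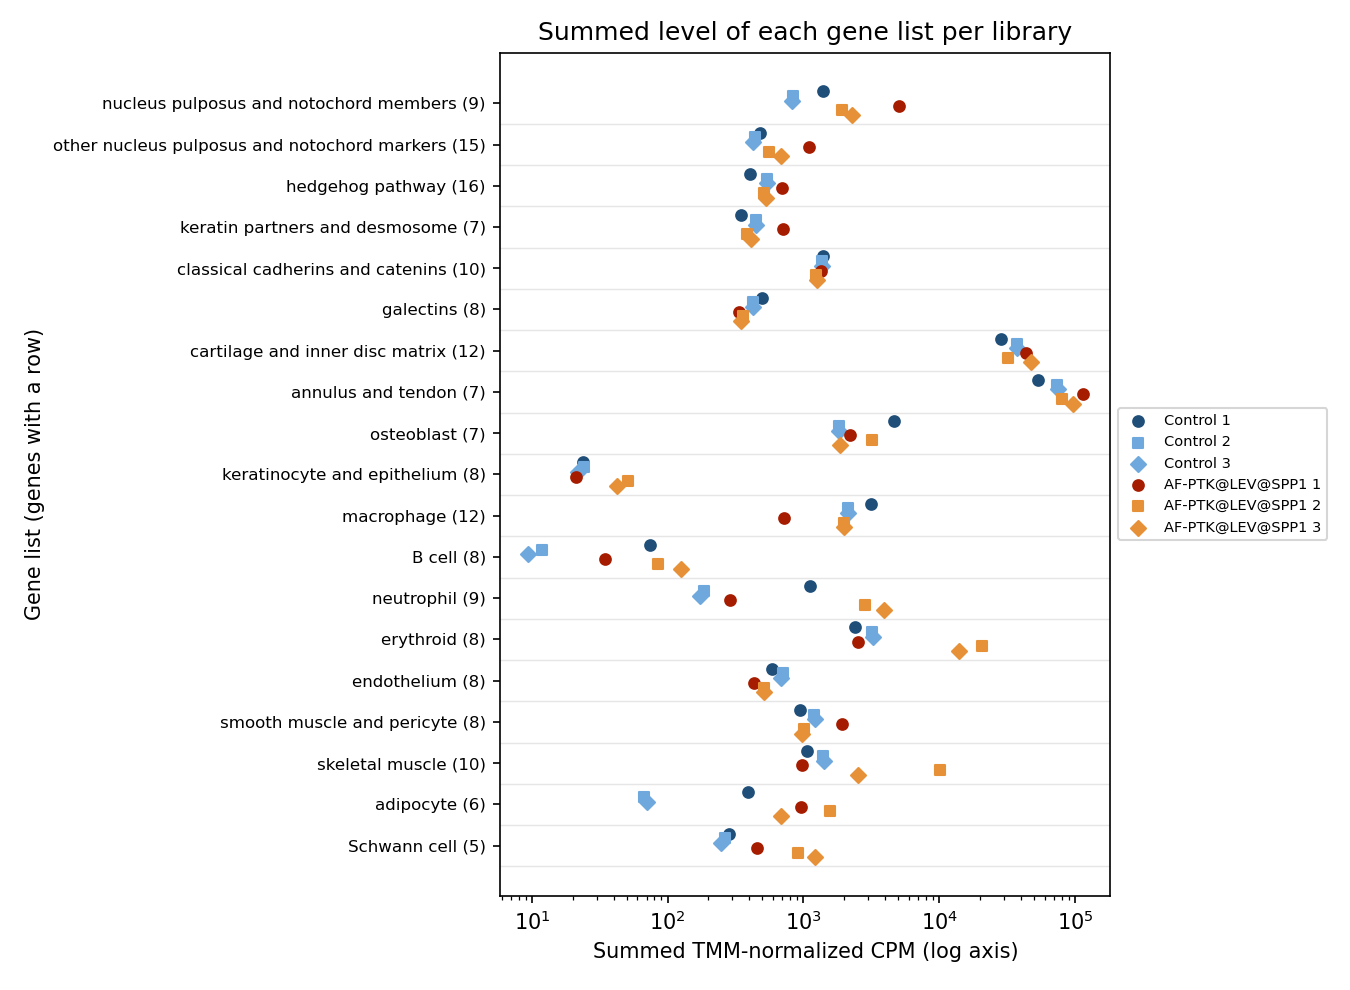
Summed TMM-normalized CPM of each gene list per library on a log axis, with the number of genes that have a row in brackets; blue points are control libraries, red and orange points those labelled AF-PTK@LEV@SPP1, and no error bars are drawn. Labelled library 1 is highest for the nucleus pulposus and notochord members (5034 CPM) and low for the erythroid, skeletal muscle and neutrophil lists, in which labelled libraries 2 and 3 are highest.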

How the data were processed

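RNA of 3 control discs and 3 discs labelled AF-PTK@LEV@SPP1 was measured. The authors deposited counts, whole numbers of reads per rat Ensembl gene, with gene names and coordinates. The submitters' processing notes name FastQC, Trimmomatic, HISAT2, featureCounts and DESeq2 without versions, and a mouse build, although the identifiers are those of rat. Strand use and the treatment of shared reads are not given in the sources used here.

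Counts were tested with edgeR 4.0.16 in R 4.3.3 (TMM, filterByExpr with a minimum of 10 counts, quasi-likelihood test, Benjamini-Hochberg adjustment over 15537 genes) between n = 2 and n = 3 distinct samples, control replicates 2 and 3 being summed. The standard error was taken as the log2 fold change over the square root of F. limma 3.58.1 (voom) and DESeq2 1.42.0, other scalings, filters and left-out samples were alternatives. The code was first tested on simulated counts. Levels come from 6 libraries normalized together, and likeness used log2(CPM + 1) of tested genes whose average log2 CPM was 1 or more. Columns were matched to samples by name (AFPTK to the treatment label, IVD to Control).

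The 10 members and all lists were chosen with earlier results of these data known. Named genes are the members, the list genes with an adjusted p under 0.05 (at most 3 per list), the most abundant gene of each cell type list and the 3 genes most like each member except Shh. Others are named to show a list's range or a defining marker. Cdh1, Cdh5 and Cdh15 are in the cadherin list and in a cell type list.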

Additional observations from a re-analysis of the deposited data

How the results depend on the processing

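The group difference of Tbxt, Krt8, Krt18, Foxf1, Foxf2 and Cd24 stayed above 0 under all 15 alternatives. Adjusted p-values over those alternatives ran from 0.0194 to 0.335 for Tbxt, 0.0236 to 0.445 for Krt8, 0.000105 to 0.321 for Krt18, 0.00838 to 0.296 for Foxf2, 0.000532 to 0.325 for Cd24 and 0.116 to 0.492 for Foxf1. With 1 sample left out in turn, the log2 fold change of Cdh2 ran from -0.46 (without the control pair) to 1.31 (without control replicate 1), with -0.14 without treated replicate 1, and that of Lgals3 from -0.49 (without treated replicate 1) to 0.14 (without treated replicate 2), so that both changed sign. The cause was not tested.

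The count of markers that passed, 0 with edgeR over 5 distinct samples (5 at an unadjusted p under 0.05), was 3 with 6 separate libraries and 5 with DESeq2, and 0 with RLE factors, library size alone, limma-voom, no filter or a minimum count of 30. All genes passing numbered 575, against 2727 with 6 libraries and 2572 with DESeq2. Genes of the other lists passing numbered 4 of 153 tested, against 29 with 6 libraries and 42 with DESeq2. With the replicate number as a replicate block and 6 libraries kept, 4 markers (Tbxt, Krt8, Krt18, Cd24), 741 genes in all and 12 genes of the lists passed. The numbers do not pair the samples: deviations of same-numbered libraries correlated at -0.34, -0.32 and -0.08 across genes.

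Leaving out 1 labelled sample in turn, edgeR passed 0 markers, and 113, 0 and 0 of all genes without treated replicates 1, 2 and 3. All genes at an unadjusted p under 0.05 numbered 3998 of 15363, 3109 of 15208 and 2699 of 15228 in the same order. Genes of the lists passing numbered 5, 0 and 0. With 1 library of the control pair left out, edgeR passed 0 markers and 562 or 566 genes. In the fits without control replicate 1 or without the control pair, 1 control sample remained. It is assumed to vary like the labelled ones. The n = 2 distinct control samples differed 8.19-fold in Tbxt and 4.36-fold in Krt8, and Shh had 0 to 2 counts in the control libraries.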
